A study of Homo sapiens with 21 samples.

Results

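The cytosolic ribosomal proteins were followed through the differentiation of human iPSCs into cardiomyocytes and in cardiomyocytes without *UBE2B*. Members were every listed transcript whose gene symbol is RPL or RPS followed by a number, with *RPLP0*, *RPLP1*, *RPLP2* and *RPSA* added. They made up 325 of the 36579 rows in the 6 tables of listed transcripts, or 221 of 21537 different transcripts, and belonged to 75 of 11852 genes. GENCODE 44 holds 84 protein-coding genes of this kind. The 9 genes with no listed transcript included the stalk gene *RPLP1* and the paralogs *RPL3L*, *RPL7L1* and *RPL10L*.

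RNA was sequenced from wild-type PGP1 cells, an established human iPSC line, as iPSCs, mesoderm (M), cardiac mesoderm (CMes), cardiac progenitors (CP) and cardiomyocytes (CM), and from CMs of the lines *UBE2B-/-1* and *UBE2B-/-2*. Each of these groups had 3 libraries, 21 in all. *UBE2B* encodes an E2 enzyme of the complex that places ubiquitin on histone H2B, and both lines are CRISPR edits of PGP1 made in separate experiments. Replicates were plates whose differentiation was begun on separate occasions, and lactate selection for CMs was applied only to wells that beat. The paper states that RNA of *UBE2B-/-* CMs was taken from beating cells, and that mutant cells were plated in larger number than wild-type cells. All groups come from 1 iPSC line, so the errors cover the spread between plates of that line.

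The tables list a transcript in a comparison only where the q-value of the Sleuth Wald test, adjusted by Benjamini-Hochberg over 65457 to 71328 transcripts tested, was at most 0.05. A transcript was called where the natural-log effect was also at least log2(1.5), which is 1.79-fold. This is a reading of the stated 1.5-fold limit, and a limit of ln(1.5), which is 1.5-fold on a linear scale, gave 142 called members from CP to CM in place of 79. Values are group means of estimated counts, back-transformed from the natural log with a pseudocount of 0.5, and changes are log2 values ± SE from 3 libraries per group. Each comparison has its own scale of counts, so the same libraries can have different values in different comparisons. Counts are on the scale of the comparison described unless another scale is named. No value of a single library was given, so the depth of the libraries and the overlap between groups are unknown here. The tables do not state how many ribosomal protein transcripts were tested, and a transcript that is not listed is not shown to be unchanged. Wild-type CMs carried their defining markers, since all 4 of *TNNT2*, *MYH6*, *MYH7* and *ACTN2* rose from CP to CM by a median of 5.84. All 3 M markers rose from iPSC to M. None of the 4 iPSC markers was listed at that step, and 3 of them fell from CP to CM.

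A ribosome is built from a small subunit, which reads the mRNA, and a large subunit, which joins amino acids. Each holds ribosomal RNA and a fixed set of proteins, most of them encoded by a single gene each, and the acidic stalk of RPLP0, RPLP1 and RPLP2 on the large subunit recruits translation factors. Their mRNAs begin with a run of pyrimidines, the 5′ TOP motif, through which mTOR signaling controls their translation. A few genes have paralogs with a narrower expression, such as *RPL3L* in striated muscle and *RPL39L* in testis. Many ribosomal protein genes make several transcripts, some with a retained intron or a premature stop that targets them to nonsense-mediated decay, and they have many processed pseudogenes. Reads shared between such copies are divided by estimation, so levels of single transcripts are uncertain, as are those of overlapping antisense genes.

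The member with the largest absolute z in any comparison was a transcript of *RPS24* (chromosome 10, hg38, chr10:78033760-78056813, plus strand). Shown here are 3 small exons near the 3′ end of the gene, and the use of single exons was not measured. The gene encodes a small-subunit protein mutated in Diamond-Blackfan anemia, and its transcripts differ in which small exons they hold and so in the last residues of the protein. The exons are shown 5′ to 3′ with the exon in capitals and the flanking intron in lower case.
RPS24 3-nt exon, chr10:78037439-78037441: ttctggattacagAAGgtaacatgtttta
RPS24 18-nt exon, chr10:78037965-78037982: catcagAAATGAAGTGTCTAGCAGgtactg
RPS24 22-nt exon, chr10:78040204-78040225: tcagTGAGCTGGAGATTGGATCACAGgtat
In GENCODE 44 the MANE transcript ENST00000372360 has the 22-nt exon alone, and its stop codon is the first 3 bases of that exon. ENST00000645440 has the 18-nt and the 22-nt exon, ENST00000464716 has all 3, and both stop within the 18-nt exon. ENST00000613865 has none of them and stops further downstream.

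The start sites show what most members share. The window from 25 bases before to 25 bases after the annotated start was read for 77 promoters of 62 core genes from RefSeq (GRCh38.p14). The longest run of C and T had a median of 11 bases, against 5 bases over all 35116 promoters, and 80.5% of the core windows held a run of at least 8, against 20.7% of all. The motif CTTTCC was found in 29.9% of core windows and 2.50% of all windows, and its reverse complement GGAAAG in 1.30% and 2.06%. In 6 windows of 5 paralog genes the median run was 4 bases and CTTTCC was not found. Windows of core genes that fell from CP to CM and of paralogs that rose are shown with the longest run in capitals.
RPL7A, chr9:133348193-133348242, plus strand: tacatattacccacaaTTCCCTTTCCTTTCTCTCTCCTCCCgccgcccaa
RPS3, chr11:75399493-75399542, plus strand: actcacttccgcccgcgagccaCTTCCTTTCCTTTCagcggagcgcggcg
RPS24, chr10:78033838-78033887, plus strand: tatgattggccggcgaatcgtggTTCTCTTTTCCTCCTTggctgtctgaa
RPS6, chr9:19380212-19380261, minus strand: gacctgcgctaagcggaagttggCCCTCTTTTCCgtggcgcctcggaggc
RPS27L, chr15:63157453-63157502, minus strand: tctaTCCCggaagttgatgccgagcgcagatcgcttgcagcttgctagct
RPL26L1, chr5:172958704-172958753, plus strand: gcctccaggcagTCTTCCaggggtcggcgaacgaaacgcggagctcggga
These windows describe the annotated start only, and transcription starts were not measured in these cells.

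From CP to CM, ribosomal protein transcripts fell across both subunits. Of 151 listed transcripts from 69 genes, 127 fell and 24 rose, while 8.42% of all transcripts tested were listed as lower and 10.1% as higher. Called were 79 of the 151, against 10338 of the 12558 listed transcripts of other genes. Over all transcripts tested 15.2% were called, and no like share can be given for members, whose tested number is unknown. With the most abundant listed transcript speaking for each gene, 63 genes were lower and 6 higher, with a median log2 change of -0.77, or 0.587 of the CP level. Large-subunit genes (36 of 39 lower, median -0.75) and small-subunit genes (24 of 25 lower, median -0.77) are given separately. Listed transcripts that were not called lay below the fold limit. When p-values were taken from a *t* distribution with 4 degrees of freedom, 1 of the 79 calls was kept, that of *RPS24* ENST00000645440.

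**Figure D1:**
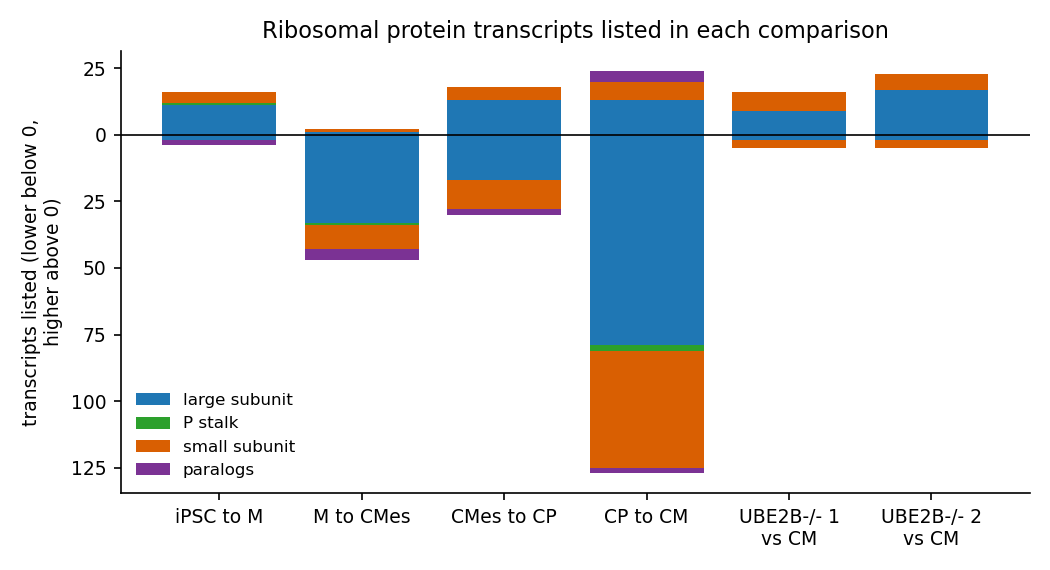
Number of ribosomal protein transcripts listed as lower (bars below 0) and higher (bars above 0) in each of the 6 comparisons, colored by subunit class. From CP to CM 127 were lower and 24 higher, from M to CMes 47 were lower and 2 higher, and in both *UBE2B-/-* lines more were higher than lower.

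Abundant transcripts almost all fell. Of the 94 listed members with a mean of at least 1000 estimated counts, 91 fell and 3 rose, with a median log2 change of -0.78. Among other genes of that level, 923 transcripts were lower and 1184 higher from CP to CM. Members with a mean under 1000 were mixed, with 36 lower and 21 higher. Of the 50 MANE transcripts listed, 43 fell. Since estimated counts are scaled to the rest of the library, and bulk RNA does not separate fewer cells of a type from less RNA per cell, these are changes relative to other transcripts.

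**Figure D2:**
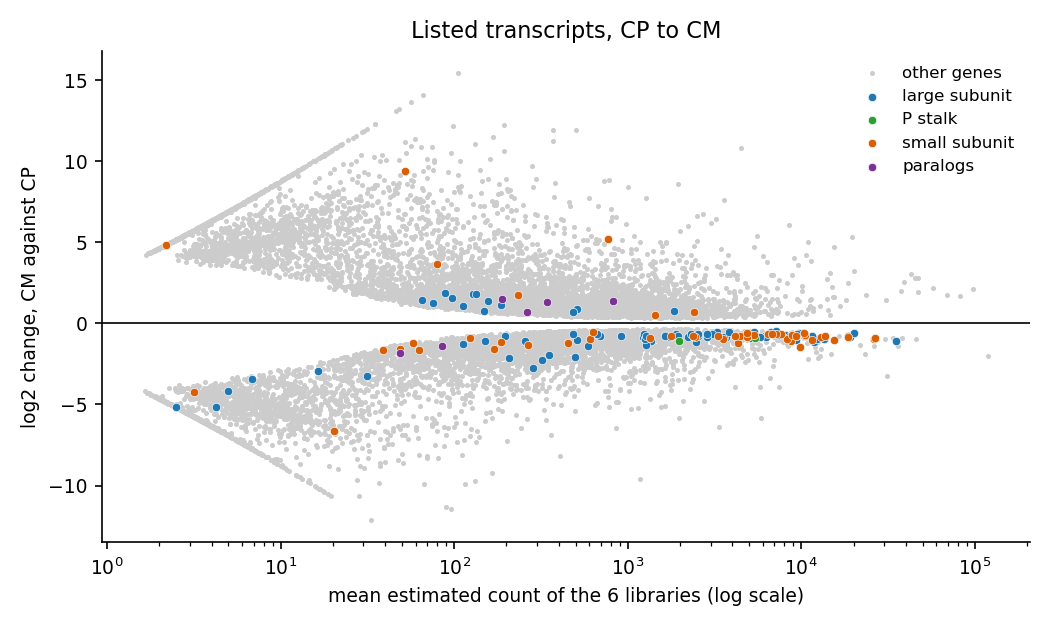
Log2 change from CP to CM against the mean estimated count of the 6 libraries (log scale) for every listed transcript, with other genes in gray and ribosomal protein classes in color. Most members with at least 1000 estimated counts form a narrow band just below 0, where 91 of 94 are lower.

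In the large subunit, *RPL3*, whose protein lies next to the peptidyl transferase center, had 51345 estimated counts in CPs and 24248 in CMs (ENST00000216146, log2 change -1.08 ± 0.29, q = 0.00177). *RPL7A* went from 17563 to 7995 (ENST00000323345, -1.14 ± 0.23, q = 9.69e-06). *RPL5* and *RPL11*, whose proteins bind 5S rRNA and can inhibit MDM2, fell by 0.59 and 0.85 on the log2 scale (ENST00000370321, q = 0.0476, and ENST00000374550, q = 1.13e-06). *RPL22* ENST00000471204 was among the 5 largest falls by z, from 1985 to 923 estimated counts (-1.10 ± 0.15, q = 1.63e-11), while its MANE transcript fell less (-0.53 ± 0.15, q = 0.00311). The third listed *RPL22* transcript, ENST00000497965, went from 2322 to 1317 (-0.82 ± 0.20, q = 0.000406).

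Among the 5 largest falls by z from CP to CM were also transcripts of 3 other large-subunit genes. *RPL17* ENST00000583036 went from 701 to 148 estimated counts (-2.24 ± 0.23, q = 1.1e-20), *RPL13A* ENST00000624069 from 1027 to 240.0 (-2.09 ± 0.29, q = 3.73e-11) and *RPL31* ENST00000409028 from 736 to 109 (-2.75 ± 0.39, q = 5.34e-11). The MANE transcript ENST00000580261 of *RPL17*, at 17430.5 in CPs and 8782 in CMs, fell by 0.99 on the log2 scale (q = 0.000959).

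In the small subunit, *RPS2* went from 36460 to 18827 estimated counts (ENST00000343262, -0.95 ± 0.25, q = 0.00167). *RPS3*, part of the mRNA entry channel, fell from 12575 to 6028 (ENST00000524851, -1.06 ± 0.24, q = 9.7e-05). *RPS6*, the substrate of S6 kinase, fell from 17914 to 10511 (ENST00000315377, -0.77 ± 0.29, q = 0.044). All of these small-subunit transcripts fell, and that of *RPS6* stayed below the fold limit.

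Listed transcripts of the P stalk genes *RPLP0* and *RPLP2* fell from CP to CM. The MANE transcript of *RPLP0* and all transcripts of *RPLP1* were listed in no comparison. *RPLP0*, which anchors the stalk, went from 2840 to 1358 estimated counts (ENST00000550856, -1.06 ± 0.22, q = 1.42e-05), and *RPLP2* from 7317 to 3983 (ENST00000321153, -0.88 ± 0.24, q = 0.00209). A second *RPLP0* transcript, the nonsense-mediated decay form ENST00000549098, had risen from 340 to 1092 from iPSC to M (1.68 ± 0.36, q = 0.000174) and fallen from 1168 to 668 from M to CMes (-0.80 ± 0.25, q = 0.0182). Its values for M differ only by the scale of the comparison, since the libraries are the same. No stalk transcript was listed from CMes to CP or in either *UBE2B-/-* line.

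*RPS24* stood apart by its transcripts. The MANE transcript ENST00000372360 had 16191 estimated counts in CPs and 6024 in CMs (-1.43 ± 0.19, q = 8.09e-13), the second largest fall by z among members. ENST00000645440, with the 18-nt exon, had 127 in CPs and 4644 in CMs, a 36.3-fold rise (5.18 ± 0.26, q = 2.98e-84) and the largest absolute z of any member in any comparison. ENST00000464716, with all 3 small exons, had 1.49 in CPs and 1371 in CMs (9.43 ± 1.99, q = 3.5e-05). The CP level of that transcript was near 0, so the size of its change depends on the pseudocount.

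Another 4 *RPS24* transcripts of lower level were listed from CP to CM. ENST00000482069, which has no defined coding sequence, rose to 284 estimated counts in CMs (3.67 ± 1.21), and ENST00000645195 rose from a level near 0 (4.83 ± 1.59). ENST00000440692 had 68.2 in CPs and fell (-1.61 ± 0.56), and ENST00000478655 went from 84.4 to 28.2 (-1.57 ± 0.58).

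Some *RPS24* transcripts also changed at earlier stages. On the scale of the CP to CM comparison, ENST00000613865, with no small exon, had 7434 estimated counts in M, 3565 in CMes and 1374 in CP. It fell at both steps (-1.06 ± 0.18, q = 3.8e-07, and -1.38 ± 0.16, q = 3.48e-16). Over the same stages ENST00000372360 had 10048, 15594 and 16191, a listed rise from M to CMes (0.63 ± 0.14, q = 9.68e-05). The small exons did not mark the direction in every transcript, since ENST00000482069, which rose from CP to CM, holds none of them either.

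**Figure D3:**
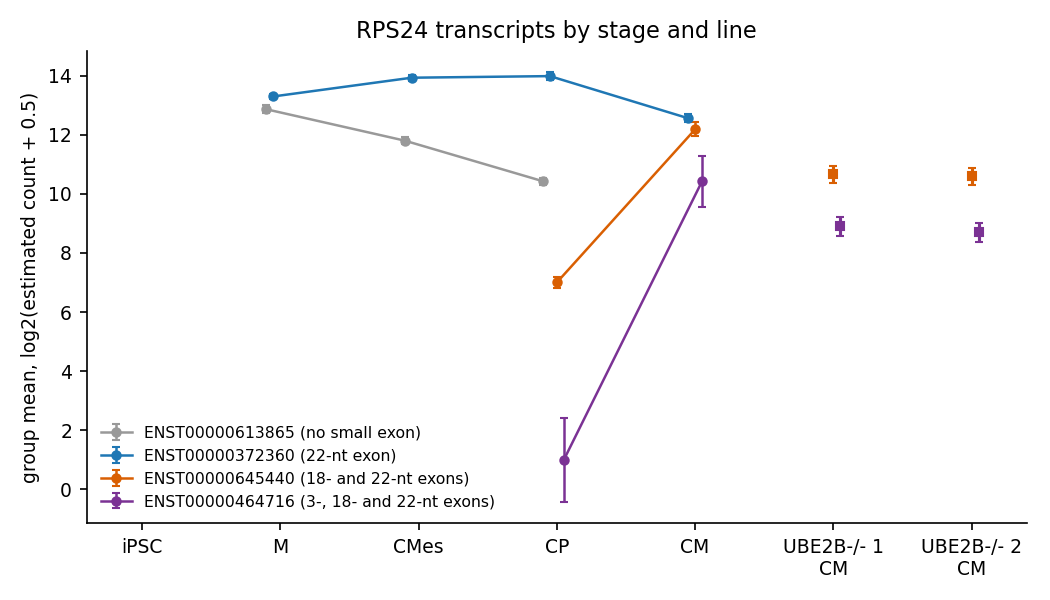
Group mean level (log2 of estimated count + 0.5, bars 1 SE) of 4 *RPS24* transcripts at each wild-type stage (circles, lines) and in *UBE2B-/-* CMs (squares), on the scale of the CP to CM comparison. Points are drawn only where a table gives the level, and none is given for iPSCs. The 2 transcripts with the 18-nt exon rise from CP to CM and lie lower in both mutant lines.

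Opposite changes within a gene were most frequent from CP to CM, where 13 genes had listed transcripts in both directions. In *RPL13*, *RPL24*, *RPL26*, *RPL30*, *RPL38*, *RPL9*, *RPL35A*, *RPL36*, *RPS20* and *RPL23*, a transcript of lower level rose while more abundant ones fell. *RPS20* ENST00000519807, for example, had 126 estimated counts in CPs and 426 in CMs (1.75 ± 0.28, q = 8.99e-09), while the MANE transcript went from 12682 to 8530 (-0.57 ± 0.18, q = 0.00946). *RPS23* and *RPL14* were exceptions in which a transcript above 1000 rose. *RPS23* ENST00000296674 went from 1912 to 3074 (0.68 ± 0.14, q = 8.65e-06), and *RPL14* ENST00000338970 from 1423 to 2406 (0.76 ± 0.13, q = 2.18e-07). The remaining gene of the 13 was *RPS24*.

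From iPSC to M, few members were listed and most of them rose. Of 20 listed transcripts from 16 genes, 16 were higher, against 2.25% of all transcripts tested, and 4 were lower, against 2.59%. Called were 12 of the 20, against 1905 of the 3219 listed transcripts of other genes and 2.87% of all transcripts tested. All 10 listed transcripts annotated as retained intron, nonsense-mediated decay or without a defined coding sequence rose, with a median of 1.29, while of the 10 coding transcripts 6 rose and 4 fell. *RPL37* led the rises, from 2236 estimated counts in iPSCs to 5039 in M (MANE ENST00000274242, 1.17 ± 0.15, q = 9.91e-13). The nonsense-mediated decay transcript ENST00000624069 of *RPL13A* went from 486 to 1035 (1.09 ± 0.17, q = 3.52e-08), and the retained-intron transcript ENST00000484616 of *RPS12* from 300.5 to 591 (0.98 ± 0.16, q = 2.66e-07). Of the 10 markers of other cell types, 3 were lower and 1 higher at this step.

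From M to CMes, nearly all listed members fell. Lower were 47 of 49 transcripts from 33 genes, against 4.16% of all transcripts tested, and 2 were higher, against 5.15%. Called were 31 of the 49, against 4419 of the 6376 listed transcripts of other genes and 6.46% of all transcripts tested. The median log2 change was -0.95. *RPL37* ENST00000274242 dropped from 5390 to 2323 estimated counts (-1.21 ± 0.13, q = 1.18e-18), *RPL26* ENST00000584164 from 842 to 390.2 (-1.11 ± 0.16, q = 1.1e-10) and *RPL41* ENST00000358888 from 688 to 267 (-1.36 ± 0.17, q = 5.3e-13). *RPL12* ENST00000361436 went from 29697 to 20376 (-0.54 ± 0.15, q = 0.0073) and *RPL13A* ENST00000391857 from 35598 to 23396 (-0.61 ± 0.16, q = 0.00353). The 10 listed members with a mean of at least 1000 estimated counts had a median of -0.68, and the 39 under 1000 one of -1.04. A transcript with a larger error is listed only with a larger change, so these medians do not show that abundant transcripts moved less. Of the 10 markers of other cell types, 6 were listed at this step and all 6 were higher (median 4.60), *SOX17* by 10.58 ± 0.64, and their part in the ribosomal protein values was not tested. The members that rose were *RPS24* ENST00000372360 and *RPL21* ENST00000461690, a nonsense-mediated decay transcript (1.17 ± 0.38, q = 0.0259).

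From CMes to CP, members moved both ways. Of 48 listed transcripts from 36 genes, 30 were lower, against 5.08% of all transcripts tested, and 18 were higher, against 5.46%. Called were 35 of the 48, against 4464 of the 7326 listed transcripts of other genes and 6.43% of all transcripts tested. The largest rises by z were *RPL37* ENST00000274242 again (0.92 ± 0.10, q = 1.38e-18), *RPL17* ENST00000583036, from 292 to 792 estimated counts (1.44 ± 0.17, q = 2.7e-15), *RPS3* ENST00000527446, from 75.6 to 372 (2.29 ± 0.27, q = 5.23e-15), and *RPL31* ENST00000409028, from 370.4 to 831 (1.17 ± 0.16, q = 1.86e-11). Among the falls, *RPL6* ENST00000424576 went from 1713 to 524 (-1.71 ± 0.21, q = 1.75e-14) and *RPS14* ENST00000312037 from 1080.2 to 360 (-1.59 ± 0.19, q = 1.92e-15). At this step 6 of 7 listed markers of other cell types were higher and 1 lower (median 4.38), with *AFP* higher by 10.67 ± 0.65 and *COL3A1* by 9.13 ± 0.35, and their part was not tested.

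Within *RPS14* and *RPL17*, transcripts moved in opposite directions from CMes to CP. *RPS14* encodes the small-subunit protein lost in the 5q- syndrome. Its MANE transcript ENST00000407193 rose from 4897 to 6075 estimated counts (0.31 ± 0.10, q = 0.0245) and ENST00000521466 from 10723 to 13772 (0.36 ± 0.12, q = 0.0234), while ENST00000312037 and ENST00000401695 fell. In *RPL17*, ENST00000583036 and ENST00000618619 rose (1.13 ± 0.17 for the latter, q = 6.18e-09) while ENST00000579248 fell from 586 to 212 (-1.46 ± 0.23, q = 1.26e-08) and ENST00000578532 fell from 825 to 409 (-1.01 ± 0.20, q = 2.04e-05).

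Transcripts listed at consecutive steps often turned. Adjacent comparisons share the libraries of the stage between them, so a high or low shared stage enters both with opposite sign. Of 11 members listed from iPSC to M and from M to CMes, 9 rose and then fell and 2 fell at both. Of 18 listed from M to CMes and from CMes to CP, 13 fell at both and 5 fell and then rose. Of 22 listed from CMes to CP and from CP to CM, 12 rose and then fell, 7 fell and then rose, 2 fell at both and 1 rose at both. *RPL37* ENST00000274242 was listed at every step. On the scale of the CP to CM comparison it had 2131, 4803, 2069.9, 3914 and 2759 estimated counts from iPSC to CM. *RPL12* ENST00000497825, without a defined coding sequence, ran in parallel with 248, 597, 238, 377 and 175, and *RPL13A* ENST00000624069 with 463, 987, 569, 1027 and 240.0. These 3 transcripts were highest in M and CP, and *RPL13A* and *RPL12* were lowest in CM.

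The transcripts that fell and then rose had the opposite course. They were *RPL9* ENST00000449470 (-2.28 and 1.83), *RPL30* ENST00000521291 (-2.03 and 1.83), *RPL26* ENST00000584164 (-1.62 and 0.79), *RPL27* ENST00000589913 (-1.61 and 1.10), *RPL36* ENST00000394580 (-1.24 and 1.17), *RPL41* ENST00000546591 (-0.50 and 0.91) and *RPS26* ENST00000552361 (-0.65 and 0.54). Those of *RPL9*, *RPL30*, *RPL26* and *RPL27* had a shared layout in GENCODE 44. Each starts 29 to 52 bases downstream of the MANE transcript's start and is 77 to 403 bases longer than it. *RPL27* ENST00000589913 also fell from iPSC to M (-0.55 ± 0.15, q = 0.00683) and from M to CMes (-1.16 ± 0.21, q = 1.14e-06), so it was listed at every step. The shared layout was seen after their values were known and was not tested.

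The paralogs went with the other members at some steps and against them at others. From M to CMes all 4 listed paralog transcripts fell, as did most members. From iPSC to M, where most members rose, the 2 listed fell, and from CP to CM, where most fell, 4 of 6 rose. *RPL22L1*, the paralog of *RPL22*, fell at every step up to CP. On the scale of the CP to CM comparison its MANE transcript ENST00000295830 had 586 estimated counts in iPSCs, 282 in M, 120.4 in CMes and 52.4 in CP. The steps were -1.05 ± 0.16 (q = 4.37e-09), -1.23 ± 0.21 (q = 2.16e-07) and -1.19 ± 0.28 (q = 0.000469). ENST00000463836 fell further from iPSC to M, from 1140.0 to 158 on the scale of that step (-2.85 ± 0.27, q = 4.25e-23). This was the largest fall by z from iPSC to M, and ENST00000475836 fell from M to CMes (-1.48 ± 0.23, q = 6.35e-09).

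*RPL39L*, the paralog of *RPL39*, fell over the later steps. On the scale of the CP to CM comparison, ENST00000433055 had 2081 estimated counts in M, 674 in CMes, 91.3 in CP and 25.8 in CM. Its steps were -1.62 ± 0.24 (q = 6.31e-10), -2.88 ± 0.24 (q = 8.41e-30) and -1.80 ± 0.68 (q = 0.045). Its annotated start lies at -41412 bases from the MANE start, that is, upstream. The MANE transcript ENST00000296277 fell from 139 to 52.2 from CP to CM (-1.41 ± 0.50, q = 0.0288).

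*RPS27L*, a p53 target and the paralog of *RPS27*, rose in CMs. ENST00000411926 went from 505 to 1326 estimated counts from CP to CM (1.39 ± 0.15, q = 3.98e-19), ENST00000439025 from 218 to 541 (1.31 ± 0.19, q = 5.9e-11) and the MANE transcript ENST00000330964 from 112 to 319 (1.51 ± 0.24, q = 5.04e-09). The last had fallen from M to CMes (-0.73 ± 0.24, q = 0.0319). *RPL26L1* ENST00000265100 went from 204 to 336 (0.72 ± 0.26, q = 0.0315), below the fold limit. No paralog transcript was listed in either *UBE2B-/-* line.

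**Figure D4:**
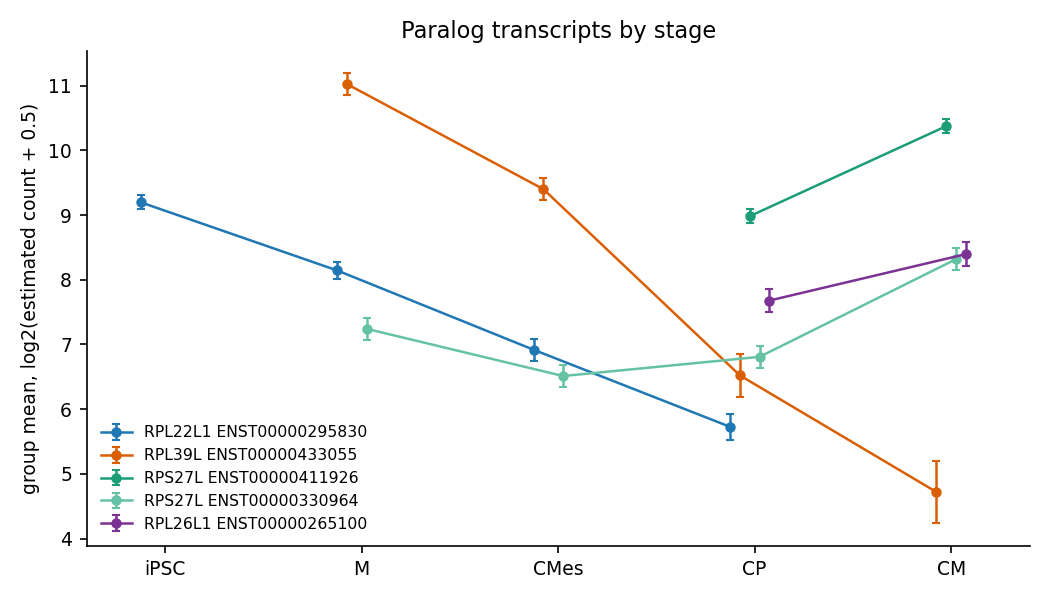
Group mean level (log2 of estimated count + 0.5, bars 1 SE) of 5 paralog transcripts at the wild-type stages, on the scale of the CP to CM comparison. *RPL22L1* falls from iPSC to CP and *RPL39L* from M to CM, while both *RPS27L* transcripts and *RPL26L1* are higher in CM than in CP.

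Genes that work with the ribosome were read from fixed lists, with 1 transcript per gene. From CP to CM, 10 of the 16 translation factors and other genes with TOP mRNAs were listed and all 10 fell, with a median of -0.98. *PABPC1*, the poly-A binding protein, fell by 1.86 ± 0.28 on the log2 scale (q = 5.64e-10), *EIF3F* by 0.99 ± 0.15 (q = 6.31e-10) and *NACA* by 0.98 ± 0.15 (q = 7.47e-09). Earlier steps were mixed for this list, with 4 of 5 higher from iPSC to M, 5 of 6 lower from M to CMes and 6 of 10 higher from CMes to CP.

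Most listed ribosome biogenesis genes fell at each step after M. Of 30 genes, 5 were listed from iPSC to M and all 5 rose. From M to CMes 26 were listed and 25 fell, with a median of -0.62, led by *RRP12* (-1.49 ± 0.15, q = 1.47e-19) and *UTP4* (-1.32 ± 0.15, q = 2.06e-17). From CMes to CP 21 of 22 fell, with a median of -0.64, led by a transcript of the nucleolar protein gene *NOP56*. It was ENST00000492135, which went from 1504 to 312 estimated counts (-2.27 ± 0.17, q = 4.79e-38). In the M to CMes comparison another *NOP56* transcript, ENST00000329276, had 2636 in CMes. From CP to CM 9 of 14 fell, with a median of -0.82 over all 14. *RACK1* and *RPL36AL* encode ribosomal or ribosome-bound proteins but do not match the naming rule. From CP to CM *RACK1* fell (-0.83 ± 0.30, q = 0.0325) and *RPL36AL* rose (0.49 ± 0.18, q = 0.0398).

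In *UBE2B-/-* CMs, more members were higher than lower against wild-type CMs. The wild-type CM libraries are those of the CP to CM comparison, so a low wild-type value enters both with opposite sign. The higher values here are thus no independent result beside the falls from CP to CM. Of *UBE2B* itself, only ENST00000499038, which has no defined coding sequence, was listed, lower in *UBE2B-/-1* (-1.91 ± 0.53, q = 0.0113), and no *UBE2B* transcript was listed in *UBE2B-/-2*. In *UBE2B-/-1*, 16 of 21 listed members from 13 genes were higher, against 2.53% of all transcripts tested, and 5 were lower, against 2.19%. Called were 14 of the 21, against 2486 of the 3014 listed transcripts of other genes and 3.89% of all transcripts tested. In *UBE2B-/-2*, 23 of 28 from 19 genes were higher, against 2.9%, and 5 were lower, against 1.88%. Called were 19 of the 28, against 2544 of the 3047 listed transcripts of other genes and 3.99% of all transcripts tested. When p-values came from a *t* distribution with 6 degrees of freedom, 0 calls were kept in either line.

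Both lines share the wild-type libraries, so their values are given side by side. Listed in both were 19 transcripts of 13 genes, 14 higher and 5 lower, which is 90.5% of the members listed for *UBE2B-/-1* and 67.9% of those for *UBE2B-/-2*. Over all transcripts these shares were 64.5% and 63.6%, and 0 of the 1992 listed for both had opposite directions. In none of the 19 did the lines differ after Benjamini-Hochberg adjustment over the 1992 transcripts listed for both, and 0 had an unadjusted p under 0.05. For 7 of the 11 members listed in 1 line, the change in the other line followed from the wild-type level of the CP to CM table, and all 7 had the same sign in both. All of these transcripts were selected for a difference from the same wild-type libraries, which favors like signs in the lines. These counts therefore do not show that the lines agree.

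**Figure D5:**
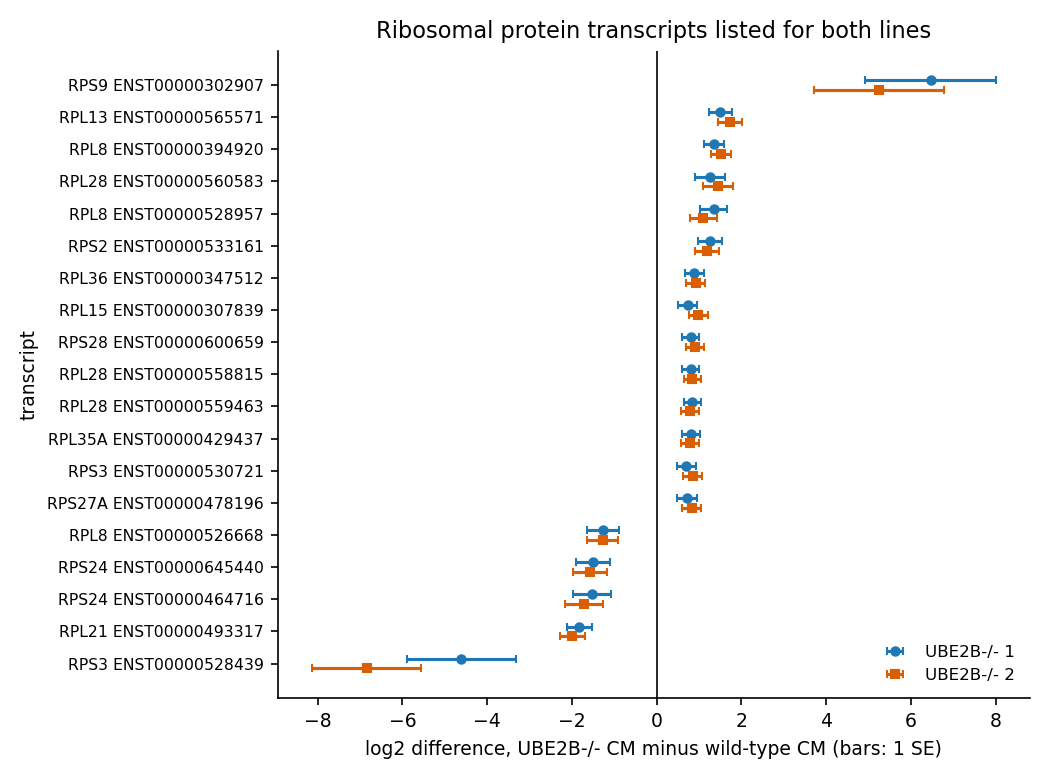
Log2 difference from wild-type CMs (bars 1 SE) of the 19 ribosomal protein transcripts listed for both *UBE2B-/-* lines, with circles for *UBE2B-/-1* and squares for *UBE2B-/-2*. *RPS9* lies above 5 and the other higher transcripts between 0.69 and 1.73, while transcripts of *RPL8*, *RPS24*, *RPL21* and *RPS3* lie below 0 in both.

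Large-subunit members led the higher transcripts. *RPL13* ENST00000565571, a retained-intron transcript, had 1052 estimated counts in wild type, 2983 in *UBE2B-/-1* and 3488 in *UBE2B-/-2* (q = 2.34e-05 in *UBE2B-/-1*, and 1.73 ± 0.28, q = 3.86e-07, in *UBE2B-/-2*). *RPL8* ENST00000394920 had 1541, 3943 and 4393 (1.35 ± 0.23, q = 2.17e-06, and 1.51 ± 0.23, q = 4.87e-08). *RPL36* ENST00000347512 had 2373, 4397 and 4477 (0.89 ± 0.23, q = 0.00473, and 0.92 ± 0.23, q = 0.00326). All 3 were higher in both lines. Of *RPL28*, 3 transcripts were higher in both lines, with ENST00000560583 called in both (1.26 ± 0.36, q = 0.0152, and 1.45 ± 0.36, q = 0.00323).

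In the small subunit, *RPS2* ENST00000533161, a retained-intron transcript, had 190.1, 457 and 432 estimated counts (1.26 ± 0.29, q = 0.00109, and 1.18 ± 0.29, q = 0.00271). The MANE transcript ENST00000600659 of *RPS28* had 1139, 1981 and 2133 (0.80 ± 0.21, q = 0.00768, and 0.90 ± 0.21, q = 0.00152). *RPS9* ENST00000302907 had 1.78, 200.4 and 85.6 (6.46 ± 1.54, q = 0.00194, and 5.24 ± 1.54, q = 0.0204). *RPS9* has copies on alternate contigs that share its reads, and its wild-type level was near 0, so that change is uncertain in size. *RPS24* gave the opposite picture. ENST00000645440 had 5359 estimated counts in wild type, 1877 in *UBE2B-/-1* and 1788 in *UBE2B-/-2* (-1.51 ± 0.40, q = 0.00813, and -1.58 ± 0.40, q = 0.00474). ENST00000464716 had 1583, 550.4 and 481 (-1.52 ± 0.45, q = 0.0238, and -1.72 ± 0.45, q = 0.00715). The CP to CM comparison and both line comparisons use the same wild-type CM libraries, so a high or low wild-type value enters them with opposite sign, and the lower values here are no independent result beside the rise from CP to CM.

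The other transcripts lower in both lines belonged to *RPL21*, *RPL8* and *RPS3*. *RPL21* ENST00000493317 had 2473, 699 and 621 estimated counts (-1.82 ± 0.29, q = 3.15e-07, and -1.99 ± 0.29, q = 1.04e-08), the largest absolute z among members lower in each line. *RPL8* ENST00000526668, a retained-intron transcript, had 1948, 812 and 802 (-1.26 ± 0.37, q = 0.0225, and -1.28 ± 0.37, q = 0.0197), opposite to the coding transcripts of the gene. *RPS3* ENST00000528439, a nonsense-mediated decay transcript, had 324, 12.8 and 2.32 (-4.61 ± 1.28, q = 0.0125, and -6.85 ± 1.28, q = 2.26e-05), while ENST00000530721 of the same gene was higher.

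Markers of CMs and of other cells also differed in the lines. Of the 4 CM markers, 2 were listed in *UBE2B-/-1* and 3 in *UBE2B-/-2*, all lower, with medians of -1.52 and -1.80. *TNNT2* was lower by 1.48 ± 0.42 in *UBE2B-/-1* (log2 change -1.48, q = 0.0161) and by 1.77 in *UBE2B-/-2* (log2 change -1.77, q = 0.00186). Of 10 markers of other cell types, 3 were listed in *UBE2B-/-1* (2 higher) and 4 in *UBE2B-/-2* (3 higher), and the fibrillar collagen gene *COL3A1* was higher by 3.51 ± 0.79 (q = 0.00091) and 4.81 ± 0.79 (q = 5.84e-07). *SOX17*, an endoderm marker, was listed as higher in *UBE2B-/-1* alone (2.18 ± 0.57), and the collagen gene *COL1A1* (3.94 ± 1.25) and *LUM* (3.06 ± 0.96) as higher in *UBE2B-/-2* alone, and these differences between the lines were not tested. Of the smooth muscle gene *CNN1*, ENST00000586059, with a mean of 308 estimated counts, was lower in both (-1.87 ± 0.28 and -1.84 ± 0.28). Another *CNN1* transcript, ENST00000252456, had 6504 in wild-type CMs in the CP to CM comparison. Of 4 CP markers, *GATA4* was listed, with ENST00000647274 higher in both (1.49 ± 0.32 and 1.82 ± 0.32). From CP to CM, 7 of the 10 markers of other cell types were listed, 4 lower and 3 higher. The part of cell composition in the ribosomal protein values was not tested.

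Of the TOP list, 5 of 7 genes were higher in *UBE2B-/-1* and 6 of 8 in *UBE2B-/-2*. *RACK1*, which is also on the TOP list, was higher in both (0.74 ± 0.22, q = 0.0205, and 0.79 ± 0.22, q = 0.0105). Of the biogenesis list, 2 genes were lower and 1 higher in *UBE2B-/-1*, and 4 lower and 1 higher in *UBE2B-/-2*. Of the nucleolin gene *NCL*, ENST00000494618, with a mean of 902 estimated counts, was lower in both (-1.15 ± 0.22, q = 2.46e-05, and -1.20 ± 0.22, q = 7.25e-06). *SBDS* ENST00000246868 was also lower in both (-0.89 ± 0.19, q = 0.000309, and -0.86 ± 0.19, q = 0.000491). Of the nucleophosmin gene *NPM1*, ENST00000351986, with a mean of 4164 estimated counts, was higher in both (0.64 ± 0.20, q = 0.0318, and 0.70 ± 0.20, q = 0.0148). Other transcripts were abundant in CP in the CMes to CP comparison, *NCL* ENST00000322723 at 15170 and *NPM1* ENST00000517671 at 21141. The values in the lines are therefore those of single transcripts and do not stand for the whole gene.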

How the data were processed

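Poly-A RNA of 21 libraries was trimmed with the FASTX-Toolkit and quantified per transcript by the authors with Kallisto against hg38. The authors fitted Sleuth models and deposited 6 tables of transcripts with a q-value up to 0.05. The deposited columns hold p-values and q-values of the Wald test, the effect, its standard error and the mean on a natural log scale, and variance estimates, given as scores (squared natural log units). These are the authors' own comparison columns. They are used because no other values are in the tables, and every count and change given here was computed from them. There are 0 columns of values per library. The precision of a value is its standard error, and depth is unknown.

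With Python 3.11.15, pandas 2.3.3 and SciPy 1.17.1, log2 changes, group means, the number of transcripts tested (from p-value, rank and q-value) and levels on 1 scale (from the shared group's mean) were computed and tested on simulated data. A fold limit of 1.5 was read as an absolute effect of at least log2(1.5). Rows of a gene with identical values, such as copies on alternate contigs, counted once. For the difference between the *UBE2B-/-* lines, the error of a single line's effect was used with a normal distribution. Transcripts were matched by identifier without version to GENCODE 44 (96.3% of rows).

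Members, gene lists and tests were chosen with earlier results of these data known. In each comparison the text names up to 5 called members per direction, ranked by absolute z, as space allows, and paralogs, stalk genes, genes called in both lines and genes with opposing transcripts. The layout of 4 transcripts, the examples of abundant transcripts and the motif were chosen after values were seen. Some genes are not reported here.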

Additional observations from a re-analysis of the deposited data

How the results depend on the processing

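With a *t* distribution (4 degrees of freedom for stages, 6 for lines) the counts of called ribosomal protein transcripts were 0 from iPSC to M, M to CMes and CMes to CP, 1 from CP to CM and 0 in both lines. With no fold limit they were 20, 49 and 151 from iPSC to M, M to CMes and CP to CM. With a limit of ln(1.5) there were 142 from CP to CM. With a q-value of at most 0.01 there were 8 in *UBE2B-/-1* and 12 in *UBE2B-/-2*. Counting genes gave 47 from CP to CM and 9 in *UBE2B-/-1*. All other counts, including those with a mean of at least 10 estimated counts and with copies counted each, stayed within 1.5 times the main ones. The setting with each transcript's own variance could only keep calls, because the fitted variance is never smaller. Of the 62 named results, 58 lost their call under the *t* distribution and 7 at a q-value of 0.01. These settings change the limit or the p-value and leave the change itself as it is, so they cannot alter a direction. For the difference between the lines, tested only in members listed for both, 0 transcripts passed under either distribution. No paired analysis was possible because the tables hold no value per library, and leaving out a replicate was not run for the same reason.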
